A study of Mus musculus with 6 samples.

Results

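The 9 genes described here, Pecam1, Cdh5, Cldn5, Flt1, Kdr, Tek, Emcn, Esam and Slco1a4, are used as markers of endothelial cells, which line blood vessels. Each gene had 1 probe, so they were 9 of the 56605 probes on the array and 9 of the 23462 genes that could be named and tested. They were chosen by the measured values themselves: Pecam1 was picked as lower in 1 genotype and the other 8 as not lower, so their genotype differences are given as a description, with no test. Pecam1 is also among the genes that the study itself picked on these arrays, and its value is not independent evidence of a direction.

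The arrays measured RNA of microglia, the resident macrophages of the brain, sorted by flow cytometry as viable CD45lo Cx3cr1+ CD11b+ cells from 3-month-old mice. In the control mice, Bhlhe41 dTomato-Cre/+ (B41HET, 3 arrays), 1 Bhlhe41 allele carried a cassette encoding dTomato and Cre placed ahead of the start codon. In Bhlhe41 dTomato-Cre/dTomato-Cre mice (B41KO, 3 arrays) both alleles carried it, so the controls also had the insertion and no array of mice without it was analysed here. Each sample was a pool of several mice according to the methods, whereas the labels speak of 3 mice per genotype, so the spread is that between 3 samples. The comparison asked which genes depend on Bhlhe41, a basic helix-loop-helix repressor of transcription. In a sorted bulk sample, fewer cells of a type and less RNA per cell cannot be told apart.

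All 6 arrays lay on 1 slide, scanned at 1 time, and 70.1% to 75.5% of the probes per array were flagged by the scanner software as well above background. Arrays of 1 genotype correlated at 0.989 to 0.993 and arrays of different genotypes at 0.985 to 0.989 over all probes. Both Bhlhe41 probes had log2 fold changes, B41KO minus B41HET, of 0.33 and 0.38 and were not called, so the level of this transcript does not check the genotype labels. The 12 microglia markers were well above background on all 6 arrays, and their summed linear signal was 174965 to 193284 in B41HET and 169217 to 180123 in B41KO. A probe was called when limma's adjusted p was 0.05 or less and the absolute log2 fold change 0.5 or more. Of 56601 probes tested, 3.34% were called lower in B41KO (1892 probes) and 1.72% higher (975 probes), and with the brightest probe of each gene these shares were 4.01% and 1.44%. Calls for a lower level made up 66.0% of all calls, and 53.9% when arrays were aligned on their 75th percentile, which moved the median of all probes by 0.11 on the log2 scale.

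Endothelial cells hold together through adhesion proteins at their junctions. Pecam1, or CD31, is an immunoglobulin-type adhesion protein of these junctions, but platelets, neutrophils, monocytes and some other leukocytes carry it as well, and its cytoplasmic tail binds phosphatases that restrain signalling. Cdh5 (VE-cadherin), Esam and Cldn5 are junction proteins too, Cldn5 being the main claudin of the blood-brain barrier. Kdr and Flt1 are receptors for vascular endothelial growth factor, Tek is the receptor for angiopoietins, Emcn is a sialomucin of the endothelial surface, and Slco1a4 is a transporter of organic anions at the barrier.

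Among the junction genes, the Pecam1 probe gave quantile-normalized log2 signals of 8.48, 8.34 and 8.27 in B41HET replicates 1 to 3. Its signals were 6.58, 6.86 and 6.61 in B41KO. Every B41KO array lay below every B41HET array, with a gap of 1.41 between the nearest ones, and the probe was well above background on all 6 arrays. Before normalization the processed intensities were 305 to 402 in B41HET and 85.8 to 117 in B41KO. The mean log2 signal was 8.37 ± 0.11 (SD, n = 3) in B41HET and 6.68 ± 0.15 (SD, n = 3) in B41KO, a log2 fold change of -1.68 (SE 0.11) or a level 3.21-fold higher in B41HET. This put Pecam1 at place 92 of 23462 genes counted from the largest decrease. For reference, 18% of all genes (4229) had every B41KO array below every B41HET array. The value ran from -1.77 to -1.62 with each array left out in turn, and was -1.29 with normexp background correction.

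Of the other junction genes, only Cldn5 was above background on every array. It had log2 signals of 6.64, 6.65 and 6.82 in B41HET and of 6.47, 6.61 and 6.65 in B41KO. The genotypes overlapped, and the log2 fold change was -0.13 (SE 0.091). It was -0.07 without B41HET replicate 3, -0.08 without B41KO replicate 1 and -0.24 when blocked by slide row. Esam had 3.36, 3.05 and 2.04 in B41HET and 4.06, 2.35 and 3.06 in B41KO, with only the first array of each genotype well above background. Its arrays spread over more than the difference of the means, and its log2 fold change of 0.34 (SE 0.54) changed sign without B41HET replicate 3 (-0.05) or without B41KO replicate 1 (-0.11), and was 0.62 without B41HET replicate 1, 0.75 without B41KO replicate 2 and 1.25 when blocked by slide row. Cdh5, the junction gene most specific to endothelium, never reached that flag, with log2 signals of 0.66 to 1.46.

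**Figure D1:**
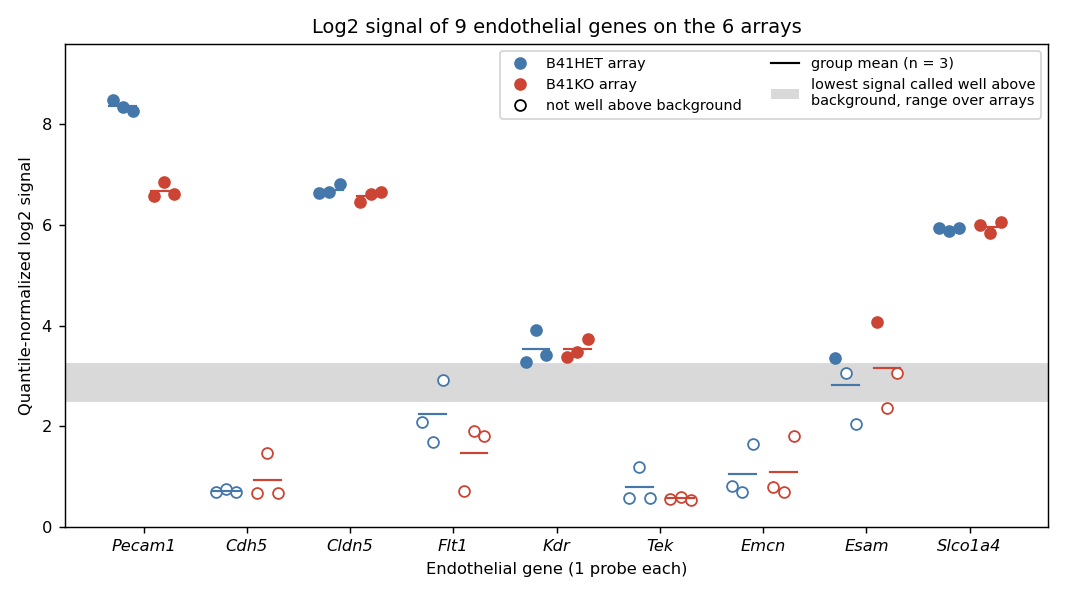
Quantile-normalized log2 signal (vertical axis) of the 9 endothelial genes, 1 probe each, on 3 B41HET and 3 B41KO arrays. Points are arrays, bars are group means, open points were not well above background, and the grey band is the range over arrays of the lowest signal that was (2.50 to 3.24). Pecam1 alone among the 9 shows separate groups. Heights of different probes are not comparable as RNA levels.

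Of the growth factor receptors, Kdr was above background on all 6 arrays, with log2 signals of 3.28, 3.91 and 3.42 in B41HET and 3.38, 3.47 and 3.74 in B41KO. Its groups overlapped and their means differed by -0.009 (SE 0.19), with a change of sign under several alternatives. Flt1, with 1.69 to 2.92 in B41HET and 0.71 to 1.91 in B41KO, stayed below that flag throughout. The same held for Tek, with 0.53 to 1.19 over the 6 arrays, so no fold is given for either receptor.

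Of the surface and transport genes, Slco1a4 had log2 signals of 5.94, 5.88 and 5.93 in B41HET and 6.003, 5.83 and 6.05 in B41KO. Its groups overlapped, with a log2 fold change of 0.045 (SE 0.084) that ran from -0.0009 without B41KO replicate 3, through 0.025 without B41KO replicate 1 and 0.028 without B41HET replicate 2, to 0.11 without B41KO replicate 2. Emcn, with 0.70 to 1.80 over the 6 arrays, was never flagged as above background.

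Thus 4 of the 9 genes (Pecam1, Cldn5, Kdr and Slco1a4) were measured above background on every array, 1 (Esam) on 2 arrays and 4 (Cdh5, Flt1, Tek and Emcn) on none, and defining endothelial markers such as Cdh5 and Tek were among the latter. Of the 9, the call rule marked Pecam1 as lower and none as higher, which the choice of the 9 on this contrast fixed. Over all genes 4.01% were called lower and 1.44% higher, and nothing is read from the 9 against these shares. The summed linear signal of the 8 genes other than Pecam1 was 190 to 203 in B41HET and 180 to 199 in B41KO, and these ranges overlapped. Cldn5 and Slco1a4 made up most of this signal, so the overlap says little about the dim genes. With Pecam1 added, the sums were 511 to 548 and 282 to 297.

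Promoter windows from RefSeq were matched for 6 of the 9 genes (not Pecam1, Cdh5 and Esam). The windows of Cldn5, Slco1a4 and Kdr are shown because these 3 genes were above background on every array with overlapping genotypes. Each is the 250 bases before the transcript's start on GRCm38.p6, read 5′ to 3′ on the gene's strand, at chr16:18776597-18776846 (+), chr6:141856221-141856470 (-) and chr5:75978456-75978705 (-). Capitals mark GGAA or its reverse complement TTCC, the core bound by ETS factors, a family with many endothelial targets.
Cldn5: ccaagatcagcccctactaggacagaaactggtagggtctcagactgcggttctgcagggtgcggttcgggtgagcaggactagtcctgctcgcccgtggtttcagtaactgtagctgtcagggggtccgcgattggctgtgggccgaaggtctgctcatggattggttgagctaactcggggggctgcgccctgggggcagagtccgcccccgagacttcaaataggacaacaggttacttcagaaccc
Slco1a4: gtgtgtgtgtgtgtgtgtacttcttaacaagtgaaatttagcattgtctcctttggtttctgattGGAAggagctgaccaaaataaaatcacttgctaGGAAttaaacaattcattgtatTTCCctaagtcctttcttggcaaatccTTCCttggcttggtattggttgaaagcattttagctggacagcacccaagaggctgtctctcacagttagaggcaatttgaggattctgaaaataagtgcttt
Kdr: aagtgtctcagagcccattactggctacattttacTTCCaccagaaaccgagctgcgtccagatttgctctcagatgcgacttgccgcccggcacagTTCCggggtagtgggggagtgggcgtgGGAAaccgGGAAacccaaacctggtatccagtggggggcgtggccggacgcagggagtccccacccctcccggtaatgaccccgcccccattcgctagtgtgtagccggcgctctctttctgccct
The letters CACGTG, the E-box that Bhlhe41 is known to bind and which reads the same on both strands, were found in 0 of the 6 windows and in 6.05% of 27025 windows of all genes. The letters AGATAA, a site of GATA factors searched on both strands, were also in 0 of 6, against 10.3% of all windows. The ETS core stood 4 times in Kdr, Slco1a4, Flt1 and Emcn, 2 times in Tek and 0 times in Cldn5, whereas 93.4% of all windows held at least 1, with a median of 3 matches. No match of 1 motif overlapped that of another. The matches describe letters only and say nothing about binding.

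Of 30 further endothelial genes, 3 (10%) were called lower in B41KO and 2 higher, beside 4.01% and 1.44% of all genes. The median log2 fold change was 0.008, and that of all 23462 genes was 0.007. The gene with the largest decrease was Ly6c1, a surface protein of brain endothelium that some leukocytes also carry. It had log2 signals of 9.62, 9.57 and 9.48 in B41HET and 7.69, 7.82 and 7.81 in B41KO, a log2 fold change of -1.79 (SE 0.079, limma adjusted p = 0.00107). Its near-identical copy Ly6c2, a monocyte gene, had a log2 fold change of -2.10, and a probe may read both, so the source of either value is uncertain. Plvap, which forms the diaphragms of fenestrated vessels, fell by 0.70 (SE 0.091) and Ly6a, a surface protein also of blood progenitors, fell by 0.56 (SE 0.091). Both kept their call among the 6 left-out arrays only without B41HET replicate 3. Rasip1, a regulator of vessel lumen formation, rose by 0.82 (SE 0.11) and Icam2, an adhesion protein of endothelium and leukocytes named after its value was seen, rose by 0.52 (SE 0.066). Rasip1 was still called without B41HET replicate 3 or B41KO replicate 2 and Icam2 only without B41KO replicate 1. No gene of the list was called higher under normexp or when blocked by slide row, and normexp gave 0.31 for Rasip1 and -0.41 for Plvap, with neither called.

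The brightest genes of this list that were not called were Cd34 (-0.35, SE 0.081), the coreceptor Eng (0.001, SE 0.075) and the transcription factor Foxq1 (-0.04, SE 0.12). The 30 genes summed to a linear signal of 12131 to 13028 in B41HET and 10741 to 11088 in B41KO. Of them, 20 were well above background on all 6 arrays and 6 on none, the latter being Itm2a, Podxl, Tie1, Ptprb, Sox7 and Slc38a5. With 1 array left out, 1 to 3 of the 30 were called lower and 0 or 1 higher. The lowest lower counts came without B41HET replicate 1 or 2 or B41KO replicate 1 or 2, and none was called higher without B41HET replicate 1 or 2 or B41KO replicate 3.

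**Figure D2:**
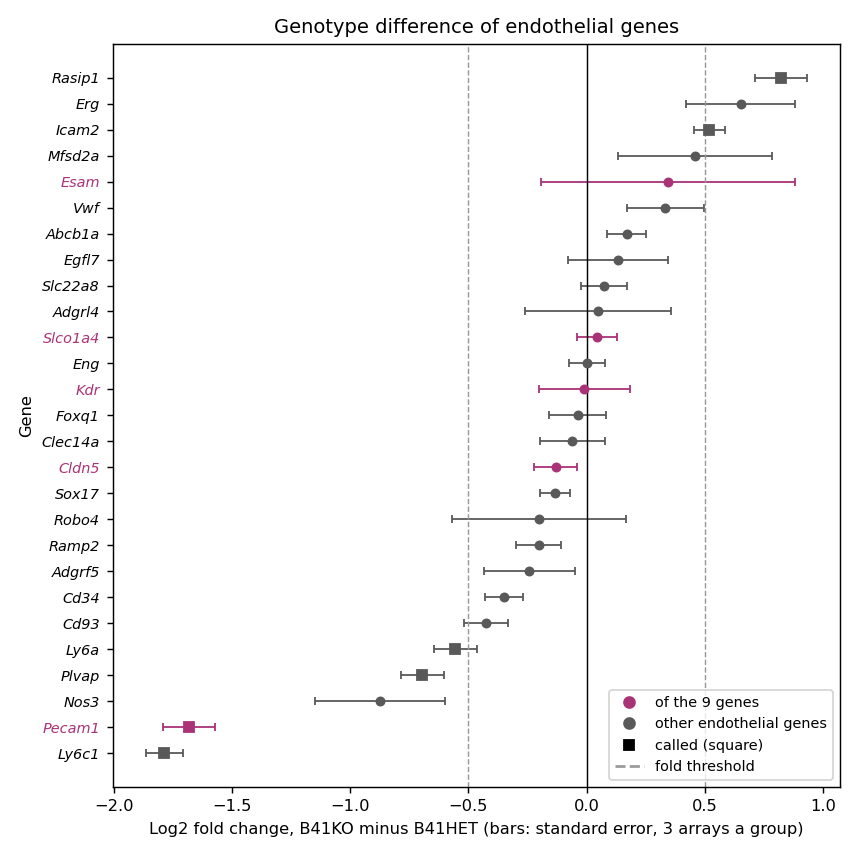
Log2 fold change, B41KO minus B41HET (horizontal axis, bars are standard errors, 3 arrays a group), of 27 of the 39 endothelial genes, the other 12 being left out because a genotype had no array well above background. Squares are called genes and dashed lines the fold threshold of 0.5. Pecam1 (-1.68) and Ly6c1 (-1.79) lie apart from the other genes drawn.

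Among 11 ligands and coreceptors of Flt1, Kdr and Tek, 1 was called lower and none higher, beside 4.01% and 1.44% of all genes. The median log2 fold change was 0.014. Nrp1, a coreceptor for vascular endothelial growth factor that macrophage-type cells also express, had log2 signals of 13.15, 13.25 and 13.15 in B41HET and 12.18, 12.38 and 12.35 in B41KO. It fell by 0.88 (SE 0.084, limma adjusted p = 0.00755), and all 3 of its probes were called lower. The related coreceptor Nrp2 (-0.03, SE 0.078) and the ligands Vegfb (0.01, SE 0.070) and Angpt2 (-0.24, SE 0.21) were not called. Angpt1, Flt4 and Tie1 stayed near background throughout.

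Of 10 genes for binding partners of Pecam1 and for signalling at its tail, 2 were called lower and none higher. The shares over all genes were 4.01% and 1.44%, and Cd177 is also counted in the neutrophil list below. Cd177, a neutrophil surface protein that binds Pecam1, had log2 signals of 9.56, 9.50 and 9.51 in B41HET and 7.41, 7.46 and 7.40 in B41KO. Its log2 fold change was -2.10 (SE 0.065, limma adjusted p = 0.000418) and it was called under each of the 14 alternatives run on single probes. Src, a kinase that phosphorylates the tail, fell by 0.69 (SE 0.10) on 1 of its 2 probes and was still called, among the left-out arrays, only without B41HET replicate 3. The phosphatase Ptpn6 (-0.13, SE 0.064), the kinase Csk (-0.13, SE 0.084) and the phosphatase Inpp5d (0.13, SE 0.18) were not called. The median of these 10 genes was -0.09.

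Lists for blood-derived cells, some of which can carry Pecam1, were examined on the same arrays. Of 12 neutrophil genes 9 were called lower and none higher, with a median log2 fold change of -2.16. Ltf (-3.17, SE 0.13), Ngp (-3.13, SE 0.084), Mmp9 (-3.00, SE 0.074) and S100a9 (-2.52, SE 0.10), which encode granule proteins, a protease and a calcium-binding protein, changed most. The granule genes Mpo (0.39, SE 0.13), Mmp8 (-0.61, SE 0.13) and Elane (-0.04, SE 0.14) were not called. The summed linear signal of the 12 genes was 31582 to 35439 in B41HET and 6331 to 6708 in B41KO, and all 12 were well above background on all 6 arrays. Neutrophils are known as CD45hi cells without Cx3cr1, and monocytes and border macrophages as CD45hi cells. The sort took CD45lo Cx3cr1+ cells, and how far it left other cells out was not tested here. The part of these genes or cells in the Pecam1 difference was not tested. Counts called lower were 4 of 12 for monocytes, 5 of 12 for border macrophages, 2 of 12 for dendritic cells, 1 of 10 each for platelets and B cells, and 0 of 10 for T and NK cells, as described next. Over all genes the share called lower was 4.01%.

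Of 12 monocyte genes 4 were called lower and none higher, with a median of -0.34. They were Plac8 (-2.68, SE 0.49), Chil3 (-2.26, SE 0.070), Ly6c2 (-2.10, SE 0.077) and F13a1 (-1.92, SE 0.35). Plac8 was well above background on 2 and F13a1 on 1 of the 3 B41KO arrays, and both kept their call only without B41KO replicate 3 among the left-out arrays, where 4 genes of the list were called, against 2 without any other array. Under normexp the log2 fold change was -0.79 for Plac8 and -0.48, not called, for F13a1. Ms4a4c (0.04, SE 0.096), Spn (0.17, SE 0.13) and Nr4a1 (-0.49, SE 0.10) were not called. The summed linear signal of the list was 81848 to 88245 in B41HET and 78862 to 94441 in B41KO, with overlap. Nearly all of it came from Ms4a4c (log2 16.28 to 16.39 in B41HET and 16.24 to 16.51 in B41KO). The overlap therefore says little about the other genes of the list.

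Of 12 genes of border macrophages, which sit at vessels and in the meninges, 5 were called lower and none higher, with a median of -0.87. They were F13a1 with the value above, Cbr2 (-1.44, SE 0.13), Ms4a7 (-1.10, SE 0.12), Cd163 (-1.02, SE 0.082) and the chemokine gene Pf4 (-0.72, SE 0.12). Cd163, a scavenger receptor, was called lower on 1 of its 2 probes, and Pf4 lost its call with any array left out. With 1 array left out, 2 to 4 of the 12 were called lower, with 2 without B41HET replicate 2 or B41KO replicate 2, 3 without B41HET replicate 1 or 3, and 4 without either of the other two arrays. Ms4a7 was not called without B41HET replicate 2 or B41KO replicate 2. The count was 2 under normexp and 1 when blocked by slide row, and normexp gave smaller log2 fold changes of -0.73 for Cbr2, -0.29 for Ms4a7, -0.53 for Cd163 and -0.38 for Pf4. Stab1 (-0.49, SE 0.080), Mgl2 (0.40, SE 0.068) and Folr2 (-0.25, SE 0.086) were not called, the former pair because their fold was under the threshold. Mrc1 and Lyve1, common markers of these cells looked up after the counts were seen, were well above background on all 3 B41HET arrays and on no B41KO array. Mrc1 was at least 2.12-fold higher in B41HET (limma adjusted p = 0.0745) and Lyve1 at least 1.28-fold (limma adjusted p = 0.0974), neither of them called. These bounds hold for the main processing only, as normexp gave smaller log2 fold changes of -0.21 for Mrc1 and -0.16 for Lyve1. With dim probes left out the list's count was 7, but both genes passed that filter through their B41HET arrays alone, so this is no support. Lyve1 was also called without B41KO replicate 1. The list's summed signal was 3894 to 4113 in B41HET and 3475 to 3756 in B41KO.

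Of 10 platelet and megakaryocyte genes, 1 (Pf4) was called lower, with a list median of 0.13. Gp9 (-0.40, SE 0.10), Gp1bb (0.16, SE 0.12) and Treml1 (0.02, SE 0.10), which encode platelet receptors or their subunits, were not called, and Ppbp stayed near background throughout. The sums of 2107 to 2256 in B41HET and 2085 to 2352 in B41KO overlapped.

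Of 12 dendritic cell genes, 2 were called lower, the lectins Clec10a (-1.92, SE 0.12) and Cd209a (-1.74, SE 0.24), with a list median of -0.11. Cd209a was called on 1 of its 2 probes and, among the left-out arrays, only without B41KO replicate 2. Only 1 of the 12 was called lower without any B41HET array or without B41KO replicate 3. Under normexp the log2 fold changes were -0.84 for Clec10a and -0.91 for Cd209a. Siglech (0.05, SE 0.080) and Irf8 (-0.04, SE 0.069), which microglia share, and Ly6d (0.25, SE 0.10) were not called. Of 10 B cell genes, Cd79a was called lower (-0.99, SE 0.10), but not under normexp (-0.49) or when blocked by slide row. The median was -0.03, and Cd79b (0.02, SE 0.10), Pax5 (0.08, SE 0.084) and Cr2 (0.23, SE 0.16) were not called. Of 10 T and NK cell genes none was called, with a median of 0.08, Cd4 at 0.33 (SE 0.075), Cd3e at 0.09 (SE 0.086) and Cd8a at 0.08 (SE 0.10). Their summed linear signal was 1522 to 1559 in B41HET and 1757 to 1875 in B41KO, higher on every B41KO array.

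Mural cells are the pericytes and smooth muscle cells of the vessel wall. Of 12 genes 1 was called lower and none higher, Vtn (-1.47, SE 0.20), an adhesion protein of brain pericytes that kept its call among the left-out arrays only without B41KO replicate 1, with -0.40 and no call under normexp. The list's median was 0.03. Acta2 (-0.19, SE 0.086), Tagln (0.03, SE 0.085) and Higd1b (-0.02, SE 0.14) were not called, and the pericyte markers Pdgfrb and Rgs5 were never flagged as above background. The sums were 26364 to 28522 in B41HET and 23723 to 26179 in B41KO, lower on every B41KO array. Most of this signal came from Acta2 alone (log2 14.39 to 14.51 in B41HET and 14.17 to 14.38 in B41KO), which was not called.

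Of the brain's own cells, astrocytes had 0 of 8 genes called and a median of -0.01, with Slc1a3 at 0.18 (SE 0.10), Aqp4 at 0.23 (SE 0.13) and Fgfr3 at -0.21 (SE 0.080). Their sum of 2222 to 2430 in B41KO lay above the 2040 to 2114 of B41HET. Of the 12 microglia genes 1 was called lower, Fcrls (-0.76, SE 0.065), which lost its call when blocked by slide row, and the median was -0.05. Cx3cr1 (-0.24, SE 0.077), which was used for the sort, Tmem119 (-0.05, SE 0.071) and Olfml3 (-0.18, SE 0.073) were not called.

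**Figure D3:**
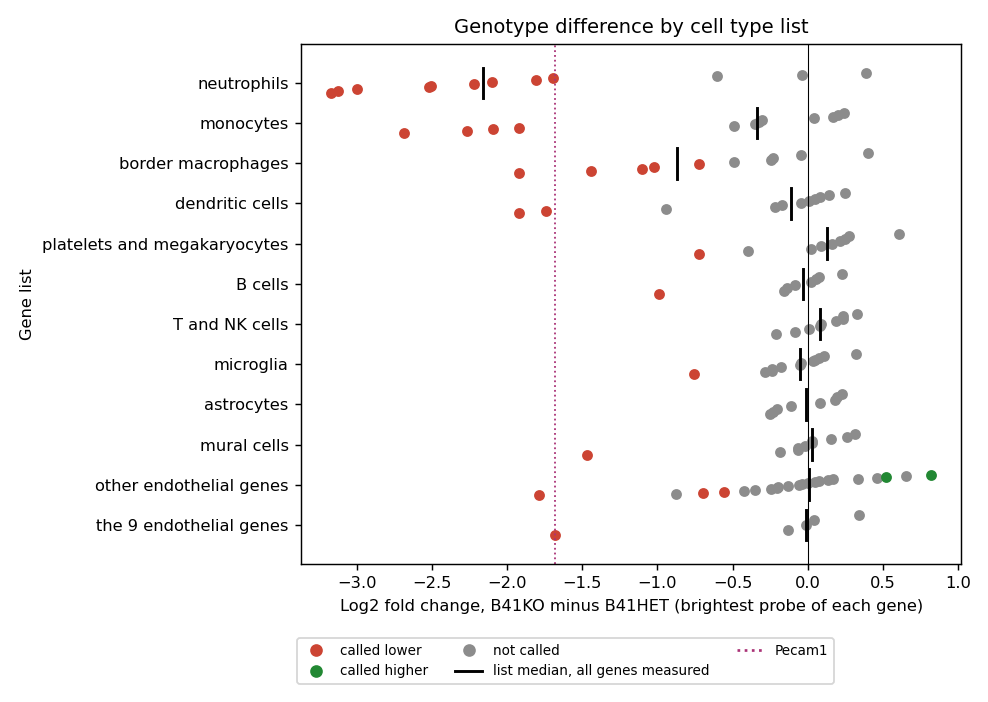
Log2 fold change, B41KO minus B41HET (horizontal axis), of the genes of each list (rows), 1 point per gene, its brightest probe. Red points are called lower, green higher and grey not called, black bars are medians over all genes measured, and 21 points of genes with a genotype dim on all its arrays are not drawn. The dotted line is Pecam1 (-1.68), and the neutrophil list has the lowest median (-2.16).

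The 5 genes whose profile over the 6 arrays was nearest to that of Pecam1 were sought among 18395 genes, by the root mean square difference of log2 signals centred on each gene's own mean. They were Galnt9 (0.0745), Lgals3 (0.0880), Camp (0.0902), Ly6c1 (0.0911) and Gpx3 (0.0942), where the value in brackets is that distance on the log2 scale. This measure takes in the genotype difference, so these genes share a difference of about the same size. Galnt9, an enzyme that starts sugar chains on proteins, had log2 signals of 5.19, 4.996 and 4.86 in B41HET and 3.19, 3.53 and 3.43 in B41KO. Lgals3 (galectin-3), a lectin of macrophages and other cells, had 8.94, 8.83 and 8.72 in B41HET and 7.21, 7.23 and 7.19 in B41KO. Camp, a neutrophil granule peptide on the neutrophil list, had 9.32, 9.44 and 9.32 in B41HET and 7.51, 7.83 and 7.67 in B41KO. Genotypes did not overlap in these genes. Gpx3, a secreted glutathione peroxidase, had 6.91, 6.86 and 6.86 in B41HET and 5.06, 5.20 and 4.93 in B41KO. The log2 fold changes were -1.63 (SE 0.13) for Galnt9, -1.62 (SE 0.081) for Lgals3, -1.69 (SE 0.10) for Camp and -1.81 (SE 0.091) for Gpx3. Of these genes Galnt9 depended most on the background correction, with -0.40 and no call under normexp, which gave -0.96 for Gpx3.

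**Figure D4:**
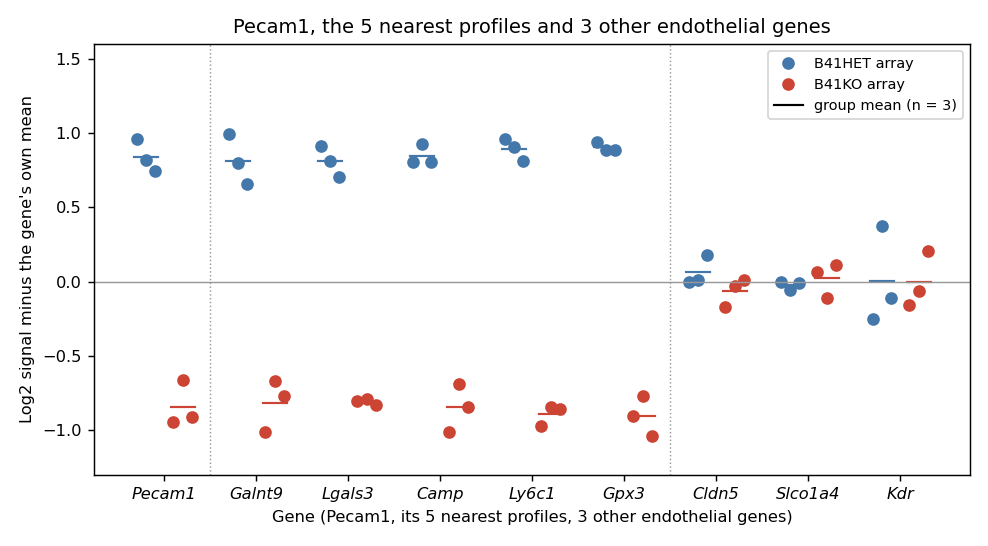
Log2 signal minus the gene's own mean over the 6 arrays (vertical axis) for Pecam1, the 5 genes nearest to it and 3 other endothelial genes. Points are arrays, 3 B41HET in blue and 3 B41KO in red, and bars are group means. Genotypes are separate for Pecam1 and its nearest genes and overlap for Cldn5, Slco1a4 and Kdr.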

How the data were processed

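RNA of sorted microglia was labelled with Cy3 and hybridised to SurePrint G3 Mouse arrays in 1 colour. Scanner output of Feature Extraction 11.5.1.1 was deposited by the authors for each array, with processed intensities that are background-subtracted and detrended but not yet made comparable between arrays. A list of log2 values was deposited as well, in which every column has about the same median (5.11) and ranks the probes as its own array does. It was read as quantile-normalized, although its scale is not stated there, and served as an alternative. The scanner software's deposited flags (other) mark outlier spots and probes well above background.

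The members and gene lists were chosen with earlier results of these data known. After removal of control spots each array had 59305 of its 62976 spots, from which 95 to 136 flagged as outliers were dropped. No spot was saturated. Processed intensities were log2-transformed, quantile normalized across the 6 arrays, as the methods state for the study, and averaged per probe. limma 3.58.1 (R 4.3.3) was fitted with genotype alone to all probes with values on at least 2 arrays per group, with Benjamini-Hochberg adjustment over every probe tested. Calls required an adjusted p up to 0.05 and a log2 fold change of at least 0.5 in either direction. With 3 against 3 arrays an exact permutation test cannot go below 0.1 (two-sided). The number of arrays limits the precision.

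Probes were named by accession through RefSeq genes on GRCm38.p6, which named 33767 probes (59.7%). The array design names mm9, so probe coordinates are not given. Lists used each gene's brightest probe, and their counts stand beside the 4.01% of all genes called lower and 1.44% called higher. A list's summed linear signal is weighted to its brightest probes. The result for oligodendrocyte genes is not reported here. Text names the 9 genes, Bhlhe41, up to 4 called genes of a list with the largest change, up to 3 of its brightest uncalled genes, and the 5 nearest profiles. Beyond this rule it names Icam2, Mrc1 and Lyve1, added after results were seen, and some genes dim on every array. A gene of more than 1 list, such as Pf4, can be named under each. A probe dim on every array of both genotypes has no fold, and one dim in 1 genotype has a lower bound.

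Alternatives were a 75th percentile shift, the authors' values, normexp (offset 50) on median signals, a filter on dim probes (well above background on 3 arrays), outlier spots kept, trend and robust variance, the mean of a gene's probes, replicate number and slide row as blocks, and each array left out. Row 1 of the slide held all B41HET arrays and B41KO replicate 1, row 2 the other two. Figures used matplotlib 3.10.9 and pandas 2.3.3 in Python 3.11.15.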

Additional observations from a re-analysis of the deposited data

How the results depend on the processing

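The log2 fold change of Pecam1 kept its sign under all alternatives, from -1.79 with the slide row as a block to -1.29 with normexp, and from -1.77 to -1.62 with each array left out in turn. Since Pecam1 was chosen on this contrast, these values describe it and test nothing. With the replicate number as a block the value was -1.68 and 0 of the 9 genes met the call rule for a lower level. Same-numbered arrays deviated together at correlations of 0.13, -0.007 and 0.17. Replicates 1 and 3 of B41HET correlated best with the same-numbered B41KO array, but replicate 2 with B41KO replicate 3 (0.03). These values do not settle whether the numbers pair the samples. Among all probes, the counts called lower and higher were 40 and 2 with the replicate block, 260 and 184 when blocked by slide row, 1077 and 423 with normexp, and 550 to 1024 and 242 to 513 with each array left out, against 1892 and 975. Row 2 of the slide held B41KO arrays alone, so the value blocked by row sets the 3 B41HET arrays against B41KO replicate 1 within row 1. Of the called genes named, Cd177, Ltf, Ngp, Mmp9, S100a9 and Chil3 were called under each of the 14 alternatives run on single probes, and Ly6c1, Nrp1, Lgals3, Gpx3, Camp, Ly6c2, Clec10a and Cd163 under 13 of these 14, all but the replicate block. The mean of a gene's probes was run for the 9 genes and for the count of calls over all genes. Under normexp 9 neutrophil genes were still called lower, while of the 30 further endothelial genes 1 was called lower and 0 higher. With the replicate block no endothelial, border macrophage or B cell gene was called. Signals near background leave Cdh5, Flt1, Tek and Emcn without a measured difference, and that of Esam includes 4 arrays not well above background.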
